A study of Homo sapiens with 5 samples.

Results

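The RAB small GTPase genes were followed in GFP-SAS cells after knockdown or inhibition of Aurora kinase A. Members were all genes with a symbol made of RAB, a number and at most 1 letter, read from probe sets that name that gene alone, so that RAB effectors and interacting proteins were left out. Of 64 such genes in the RefSeq table, 61 were measured, by 166 probe sets, among 18239 genes in all. RAB1C, RAB6C and RAB44 were not analysed here. Cells received DMSO vehicle, 100 nM MLN8237 (alisertib, an inhibitor of the Aurora A kinase), a non-targeting siRNA (siNT), or 10 nM of siAURKA-1 or siAURKA-2, both directed against AURKA mRNA, and were exposed for 24 h. GFP-SAS is a squamous carcinoma line of the human tongue marked with green fluorescent protein. All groups share this line and each was measured on 1 array, so no difference below has a replicate check and no p-value is given.

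RAB proteins are molecular switches of membrane traffic. They bind a vesicle or organelle membrane through prenyl groups at the carboxyl end, are switched on by exchange factors that load GTP and off by GTPase activating proteins, and in the GTP form recruit effectors such as tethers, motors and adaptors. Each RAB marks particular membranes, from the endoplasmic reticulum and Golgi to endosomes, lysosomes and secretory vesicles. In epithelial cells they sort integrins, cadherins and growth factor receptors, and several act at the cleavage furrow and at the primary cilium, where Aurora A also works.

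The deposited values are log2 signals centred per probe set on the median of the 5 arrays. A value of 0 is therefore the middle array and not an absence of message, levels cannot be compared between genes, and the log2 differences between arrays are the measurement. The value of a gene is the median of its probe sets. A log2 difference of 1 is 2-fold and one of 0.58 is 1.5-fold.

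A minority of RAB genes, a larger share than among all genes, was at least 1.5-fold apart in some comparison. RAB40B was far lower on the siNT array than on any other, RAB21 was lower on both AURKA siRNA arrays, and RAB8A and RAB32 were lower with siAURKA-1 alone. In bulk RNA, fewer cells that express a gene and less message per cell cannot be told apart. In all, 14 of the 61 genes were at least 1.5-fold apart when each siRNA was set against siNT, MLN8237 or siNT against DMSO, or the siRNAs against each other (23.0%, beside 13.2% of all genes). With each siRNA against DMSO added, RAB22A, RAB17 and RAB4B joined them, which made 17 (27.9%, beside 15.3%), and the other 44 were not. At the quiet end, 13 genes (21.3%, beside 22.2% of all genes) spanned less than 0.1 over the 5 arrays, among them RAB35, RAB2A, RAB5C and RAB3D, and RAB3C, RAB19 and RAB40C had a gene value of 0 on every array. Where such a gene has several probe sets its value is a median, and single probe sets can differ more. RAB3C and RAB19 have 1 probe set each, which read 0 on every array. Centred values cannot show whether these signals lay at background. The median range over the arrays was 0.31 for RAB genes and 0.22 for all genes.

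With siAURKA-1, 1 of 61 RAB genes (1.64%) was at least 2-fold from siNT, beside 1.96% of all genes. At 1.5-fold, 9 were apart (14.8%), beside 7.05% of all genes. Of these 5 were higher, a side that held 2.57% of all genes, and 4 lower, beside 4.48%. With siAURKA-2 the counts were 1 (1.64%, beside 1.26% of all genes) and 3 (4.92%, beside 5.08%), so against siNT the share at either size was near that of all genes. The 3 were 1 higher, beside 1.96%, and 2 lower, beside 3.11%. Against DMSO the 1.5-fold counts were larger, with 10 RAB genes for siAURKA-1 (16.4%, beside 6.84% of all genes) and 7 for siAURKA-2 (11.5%, beside 5.21%). The 7 were RAB40B, RAB8B, RAB22A and RAB31 on the higher side and RAB20, RAB28 and RAB21 on the lower. MLN8237 minus DMSO gave 0 RAB genes at 2-fold, beside 0.0658% of all genes, and 1 at 1.5-fold (1.64%, beside 0.482%). Between the control arrays, siNT minus DMSO, 1 was at least 2-fold apart (1.64%, beside 0.296%) and 4 at least 1.5-fold (6.56%, beside 2.08%). The median RAB difference was 0.03 for siAURKA-1, 0.00 for siAURKA-2, 0.02 with MLN8237 and 0.02 between the controls, and that of all genes was 0.00 in each. The heat map of all members shows where the departures lie.

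**Figure D1:**
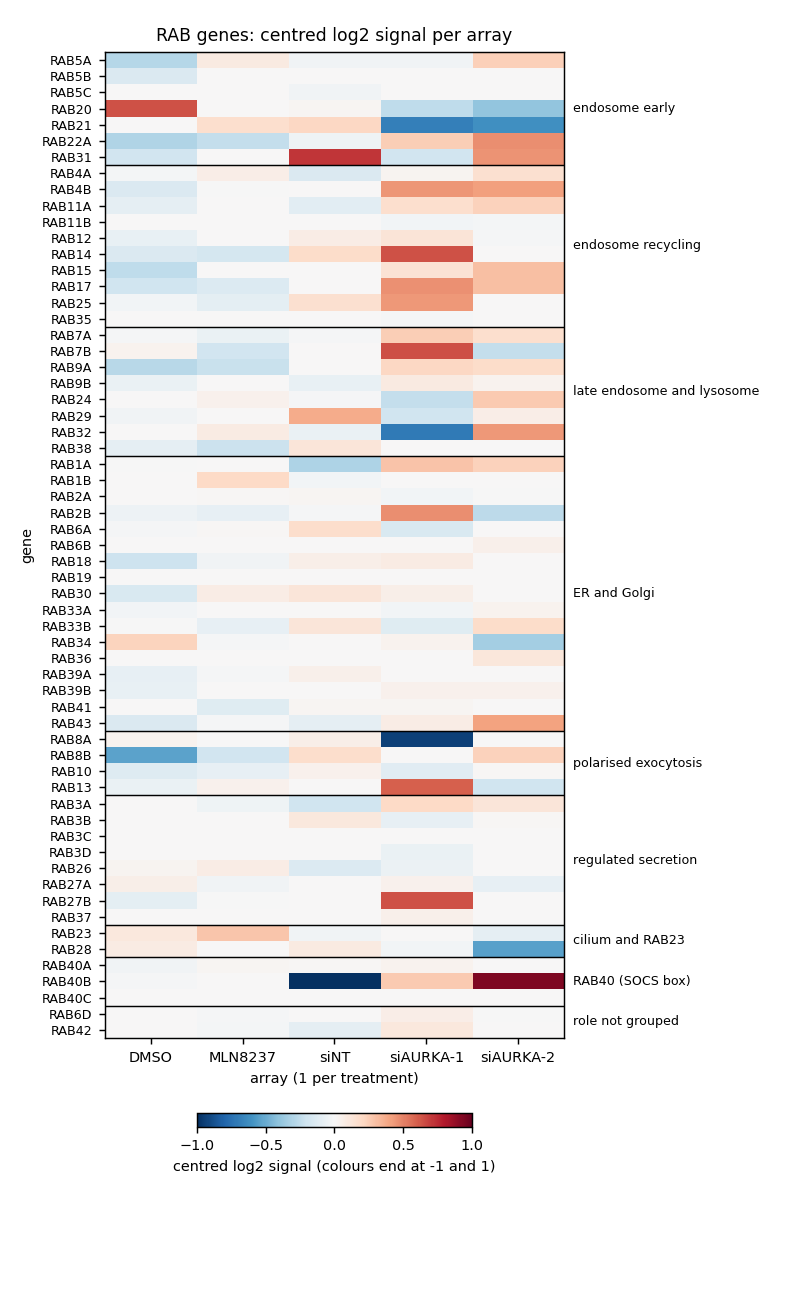
Centred log2 signal of the 61 measured RAB genes (rows, grouped by role) on the 5 arrays (columns, 1 array per treatment), with colours that end at -1 and 1. RAB40B reads -1.90 on the siNT array, beyond the colour scale, and RAB21 is low on both AURKA siRNA arrays.

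A few facts of the arrays bear on every value. AURKA was 10.3-fold lower with siAURKA-1 and 6.24-fold lower with siAURKA-2 than with siNT. On the MLN8237 array AURKA was 0.49 above DMSO and 0.64 above siNT. A single probe set read it. The poly-A spike-in control probe sets had medians from -0.50 on the DMSO array to 0.17 on the siAURKA-1 array. The 3' minus 5' difference of the GAPDH and ACTB control probe sets lay between -0.11 and 0.14. As each probe set is centred, these values compare the arrays with one another only. They cannot show whether the RNA was intact. Of 6 squamous epithelial markers 4 were measured (KRT5, KRT14, CDH1 and EPCAM), and all 4 were above siNT with siAURKA-1 (0.05 to 0.60) and below it with siAURKA-2 (-1.82 to -0.03). The siRNAs therefore parted on them, by 2.13 for KRT5, 1.06 for CDH1, 0.31 for KRT14 and 0.08 for EPCAM, which stands beside every RAB gene below that separates the siRNAs. The fibroblast, leukocyte and endothelial markers lay between -0.16 and 0.12 with either siRNA. Centred values cannot show whether a marker is present, and the part of these readings in the RAB results was not tested.

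Among the 7 early endosome genes, RAB21 differed from all other arrays on both AURKA siRNA arrays. RAB21 binds integrin tails and guides their endocytosis. Its values were 0.00 with DMSO, 0.16 with MLN8237, 0.21 with siNT, and -0.68 and -0.61 with siAURKA-1 and siAURKA-2. The siRNA arrays were thus both low, with a gap of 0.61 to the lowest of the other 3. Against siNT the differences were -0.89 and -0.82 (1.85-fold and 1.76-fold lower), and against DMSO -0.68 and -0.61. Both probe sets of the gene gave the same direction in each of these, and the siRNAs differed from each other by -0.07.

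RAB31, a relative of RAB5 that acts between the trans-Golgi network and endosomes, showed a different pattern. It read -0.19 with DMSO, 0.00 with MLN8237, 0.71 with siNT, and -0.19 and 0.45 with siAURKA-1 and siAURKA-2. The siNT array was the high one and siAURKA-1 lay at the DMSO value. As a result siAURKA-1 was -0.91 from siNT but -0.01 from DMSO, and siAURKA-2 was -0.26 from siNT and 0.64 above DMSO. All 4 probe sets placed siNT above DMSO, by 0.63 to 1.16.

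RAB20, an endosomal RAB known as a hypoxia-responsive gene, was highest with DMSO. Its single probe set gave 0.64 with DMSO, 0.00 with MLN8237, 0.02 with siNT, and -0.25 and -0.40 with siAURKA-1 and siAURKA-2. It was the 1 RAB gene at least 1.5-fold apart in MLN8237 minus DMSO (-0.64), and siNT lay equally far from DMSO (-0.62). Set against siNT, MLN8237 was at -0.02.

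RAB22A, which sorts cargo from early to recycling endosomes, ran the other way from RAB21. It read -0.30 with DMSO, -0.23 with MLN8237, -0.04 with siNT, and 0.25 and 0.46 with siAURKA-1 and siAURKA-2, with both siRNA arrays above the rest. The differences from siNT were 0.29 and 0.51, short of 1.5-fold, and those from DMSO 0.55 and 0.76. The RAB5 genes, whose products control homotypic fusion of early endosomes, were closer to level. RAB5A gave 0.00 and 0.27 against siNT and 0.37 for MLN8237 minus DMSO, with all 4 probe sets higher in the latter, while RAB5B and RAB5C lay within 0.14 of level in each of the 4 comparisons with their own control. RAB22A was picked after seeing its values.

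Over the 10 recycling endosome genes the median difference from siNT was 0.22 for siAURKA-1 and 0.15 for siAURKA-2, and siNT minus DMSO gave 0.14. None of them was 1.5-fold from siNT with siAURKA-1 or siAURKA-2, beside 7.05% and 5.08% of all genes. The same held from DMSO with MLN8237 or siNT, beside 0.482% and 2.08%. A list of 10 genes is too short for 0 to stand out from such shares. Set against DMSO instead, siAURKA-1 took 3 of the 10 past 1.5-fold, all upward (30%, beside 6.84% of all genes). These were RAB14 (0.78), RAB17 (0.65) and RAB4B (0.59). For siAURKA-2 that count was 0, beside 5.21%. RAB14 works between the Golgi and recycling endosomes. Its values were -0.14 with DMSO, -0.17 with MLN8237, 0.18 with siNT, and 0.64 and 0.00 with siAURKA-1 and siAURKA-2. The siAURKA-1 array was highest, by 0.46 over siNT and 0.78 over DMSO, and exceeded siAURKA-2 by 0.64, a direction that all 4 probe sets shared.

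RAB4B, of the rapid recycling route, had the widest gap of any RAB gene between both AURKA siRNA arrays and the arrays below them. It read -0.14 with DMSO, 0.00 with MLN8237 and siNT, and 0.45 and 0.41 with siAURKA-1 and siAURKA-2, from 1 probe set. RAB17, an epithelial RAB of apical recycling, resembled it in order, with siRNA values of 0.46 and 0.30 above -0.20 to 0.00 elsewhere. It too was read by 1 probe set. RAB11A, the central RAB of slow recycling, was 0.27 and 0.33 above siNT, but its probe sets split. For siAURKA-1, 2 of them gave 0.62 and 0.65 and the remaining pair 0.00 and 0.01. RAB11B and RAB35, both also active in recycling, had gene values within 0.03 of level in the 4 comparisons. For siAURKA-1 minus siNT the 7 probe sets of RAB11B nonetheless ranged from -0.73 to 0.20, and the 5 of RAB35 from -0.21 to 0.06. RAB4B, RAB17, RAB11A and RAB11B were picked after seeing their values.

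Taking both AURKA siRNA arrays against the DMSO, MLN8237 and siNT arrays, 14 RAB genes (23.0%) lay above all 3 on both, beside 14.2% of all genes, and 5 (8.20%) lay below, beside 9.62%. The count above depends on the gap asked for, and both sizes given here were chosen after seeing the values. With a gap of at least 1.2-fold there were 3 above (RAB4B, RAB17 and RAB22A, 4.92%, beside 1.09% of all genes) and 1 below (RAB21, 1.64%, beside 1.62%). At 1.3-fold 1 was left above (RAB4B, 1.64%, beside 0.488%) and 1 below (RAB21, beside 0.795%). The gaps were 0.41, 0.30 and 0.29 for the former and 0.61 for RAB21. The 14 comprised RAB4B, RAB17, RAB22A, RAB40B, RAB1A, RAB9A, RAB7A, RAB11A, RAB15, RAB3A, RAB43, RAB39B, RAB9B and RAB42. The 5 were RAB21, RAB20, RAB28, RAB11B and RAB2A.

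Among the 8 late endosome and lysosome genes, RAB32 and RAB7B separated the siRNAs. RAB32, which serves melanosomes and other lysosome-related organelles and binds mitochondria, gave 0.00 with DMSO, 0.08 with MLN8237, -0.07 with siNT, and -0.71 and 0.43 with siAURKA-1 and siAURKA-2. The siRNA arrays were its lowest and highest, 2.20-fold apart (-1.14), which made it the 1 RAB gene past 2-fold between them, beside 2.16% of all genes. Against siNT the values were -0.64 and 0.50, and against DMSO -0.71 and 0.43.

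RAB7B, a late endosome RAB of transport to the trans-Golgi network, was ordered the opposite way. It read 0.03 with DMSO, -0.19 with MLN8237, 0.00 with siNT, and 0.64 and -0.24 with siAURKA-1 and siAURKA-2. The siAURKA-1 difference from siNT was 0.64 with both probe sets higher, and the difference between the siRNAs was 0.88. RAB7A, the main RAB of late endosome to lysosome fusion, was higher by 0.26 and 0.18. RAB29, which recruits the kinase LRRK2, lay just inside 1.5-fold at -0.57 with siAURKA-1 and was 0.40 higher with siNT than with DMSO. RAB24, linked to autophagy, gave -0.23 and 0.27. RAB7A, RAB29 and RAB24 were picked after seeing their values.

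In total, 9 RAB genes (14.8%) were at least 1.5-fold apart between siAURKA-1 and siAURKA-2, beside 7.66% of all genes. On the higher side 3.68% of all genes lay and on the lower 3.99%. RAB7B, RAB13, RAB2B, RAB14 and RAB27B were higher with siAURKA-1, and RAB32, RAB8A, RAB40B and RAB31 lower. The epithelial markers KRT5 and CDH1 were also higher with siAURKA-1 than with siAURKA-2, and their part in these differences was not tested.

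The 17 measured endoplasmic reticulum and Golgi genes had medians of 0.00 with either siRNA. RAB1A, which drives transport from the endoplasmic reticulum to the Golgi, was the 1 member at least 1.5-fold from siNT with siAURKA-1. That is 5.88% of the list, beside 7.05% of all genes. With siAURKA-2 the count was 0, beside 5.08%. The values of RAB1A were -0.01 with DMSO, 0.00 with MLN8237, -0.31 with siNT, and 0.29 and 0.23 with siAURKA-1 and siAURKA-2. The siNT array was low and both AURKA siRNA arrays were high. Every probe set of the 4 lay above siNT for each siRNA (0.60 and 0.54 for the gene), whereas against DMSO the gene differed by 0.29 and 0.24 with 3 of the 4 above it. Its close paralog RAB1B differed by 0.03 from siNT with both siRNAs.

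RAB2B, of the early secretory pathway, separated the siRNAs. It read -0.05 with DMSO, -0.08 with MLN8237, -0.01 with siNT, and 0.46 and -0.26 with siAURKA-1 and siAURKA-2. Its 2 probe sets shared the siAURKA-1 direction but not that of siAURKA-2, where they gave 0.10 and -0.60 against siNT. RAB2A differed by no more than 0.05 in the 4 comparisons as a median of 4 probe sets, of which 1 gave 0.45 for siNT minus DMSO.

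RAB6A, the Golgi RAB of retrograde transport, showed how far a gene value can depend on the probe set. The gene value was -0.33 with siAURKA-1 and -0.18 with siAURKA-2 against siNT. Of its 8 probe sets, 3 gave -1.26, -1.13 and -0.97 with siAURKA-1 and the other 5 lay between -0.18 and 0.19. A further pair, shared with RAB6C and RAB6D and so not counted for any gene, gave -0.85 and -0.86. Probe sets of such near-identical paralogs cannot assign the signal to 1 gene with certainty, and RAB6A is named here after its values were seen.

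**Figure D2:**
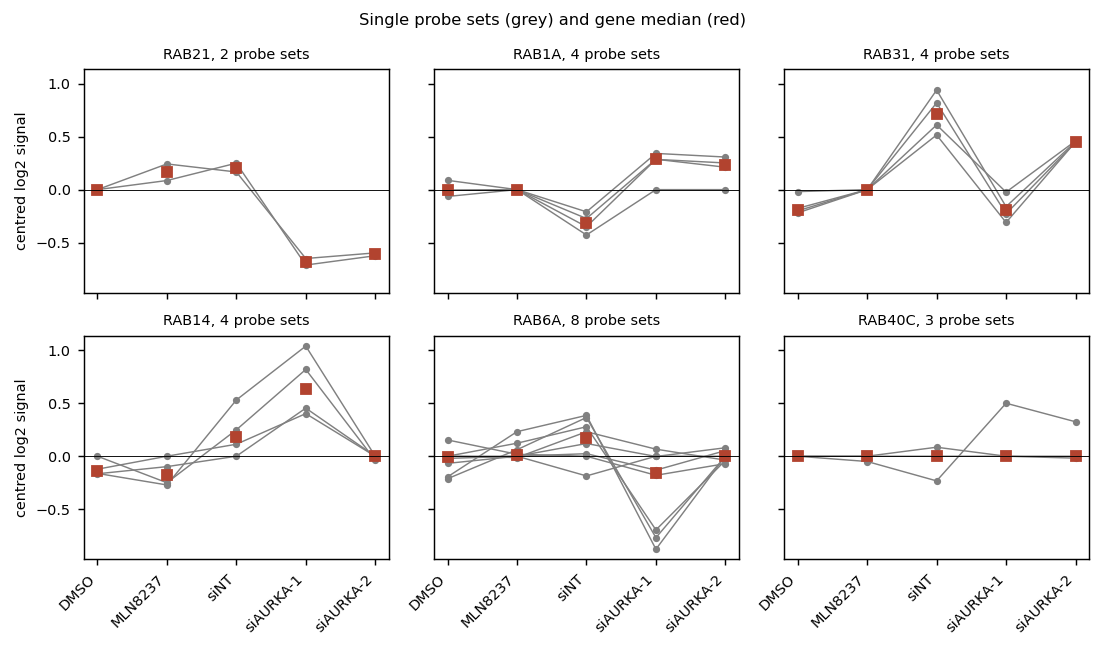
Centred log2 signal (vertical axes) of single probe sets (grey) and the gene median (red squares) on the 5 arrays (horizontal axes) for 6 RAB genes. The probe sets of RAB21, RAB1A and RAB31 run together, while 3 of the 8 of RAB6A and 1 of the 3 of RAB40C part from the median with siAURKA-1.

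The 4 genes of polarised exocytosis, which deliver vesicles to the plasma membrane, junctions and cilium, did not move as a group. RAB8A, which acts in apical delivery and ciliogenesis, gave 0.03 with DMSO, 0.00 with MLN8237, 0.06 with siNT, and -0.93 and 0.00 with siAURKA-1 and siAURKA-2. The siAURKA-1 array alone was low, and the remaining 4 lay within 0.06 of one another. The difference from siNT was -0.99, 1.99-fold and just short of 2-fold, and that from DMSO was -0.96. A single probe set read the gene.

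RAB8B, its paralog, followed another order. It read -0.53 with DMSO, -0.19 with MLN8237, 0.17 with siNT, and 0.00 and 0.23 with siAURKA-1 and siAURKA-2. DMSO was the low array, with siNT 0.71 above it and MLN8237 0.34 above it, on all 4 probe sets in both cases. Against siNT the siRNAs gave -0.17 and 0.06.

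RAB13, a RAB of tight junction assembly, was high with siAURKA-1 alone. Its values were -0.07 with DMSO, 0.04 with MLN8237, 0.00 with siNT, and 0.60 and -0.20 with siAURKA-1 and siAURKA-2, and both probe sets shared these directions. A probe set that also names LRP10, not used for the gene, gave 0.59 for siAURKA-1 minus siNT. RAB10, which directs basolateral and GLUT4 vesicle delivery, differed by -0.16 and -0.04.

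Of the 8 regulated secretion genes, 7 were within 0.40 of siNT with both siRNAs. The exception was RAB27B, which docks secretory granules and exosome-bearing endosomes at the plasma membrane. It read -0.10 with DMSO, 0.00 with MLN8237, siNT and siAURKA-2, and 0.64 with siAURKA-1, on 1 probe set. RAB27A, its paralog with an overlapping role, gave 0.04 and -0.08, and RAB3A, of synaptic-type vesicle release, gave 0.40 and 0.32.

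RAB28 and RAB23, both tied to the cilium, differed. RAB28 read 0.08 with DMSO, 0.00 with MLN8237, 0.09 with siNT, and -0.03 and -0.54 with siAURKA-1 and siAURKA-2. Only the siAURKA-2 array was low, by -0.63 from siNT and -0.62 from DMSO on all 3 probe sets. RAB23, a negative regulator of Hedgehog signalling, gave 0.03 and -0.05 with the siRNAs and 0.17 with MLN8237.

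**Figure D3:**
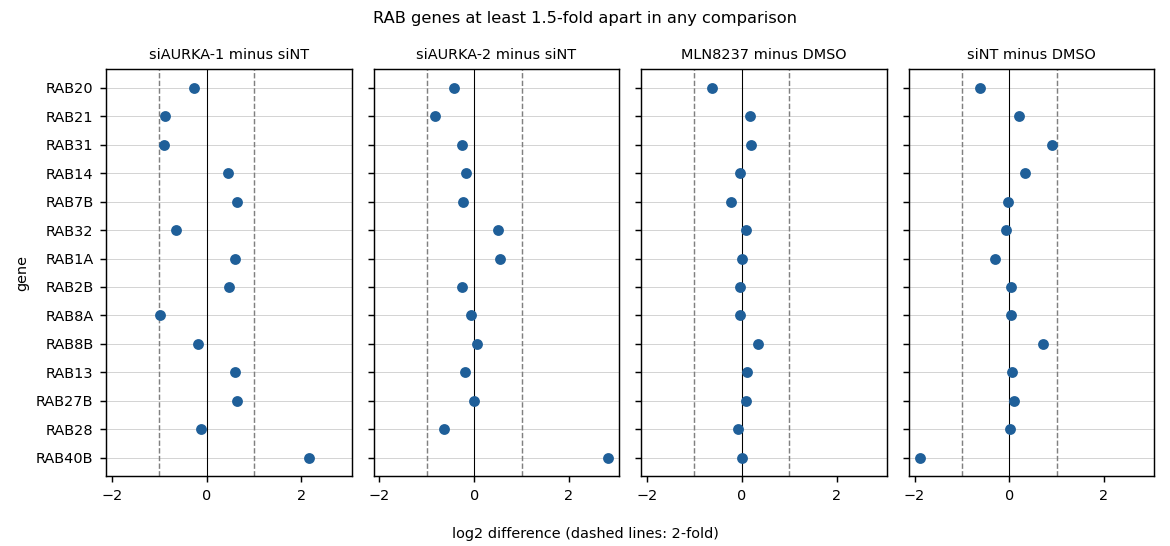
Log2 differences (horizontal axes, dashed lines at 2-fold) of the 14 RAB genes (vertical axis) that were at least 1.5-fold apart in these 4 comparisons of single arrays or between the siRNAs. RAB40B alone passes 2-fold, above siNT with both siRNAs (2.16 and 2.83) and below DMSO on the siNT array (-1.89).

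RAB40 proteins are unusual RABs that carry a SOCS box and act as substrate adaptors of CUL5 ubiquitin ligases. RAB40B gave -0.01 with DMSO, 0.00 with MLN8237, -1.90 with siNT, and 0.26 and 0.93 with siAURKA-1 and siAURKA-2. The siNT array was the low one by far, and the DMSO and MLN8237 arrays were level. Against siNT the siRNAs were 4.45-fold and 7.09-fold higher, but against DMSO 1.21-fold and 1.92-fold (0.27 and 0.94), so neither passed 2-fold there. In all, 0 RAB genes passed 2-fold from DMSO with siAURKA-1, beside 1.77% of all genes, and 1 (RAB20) did with siAURKA-2 (1.64%, beside 1.28%). MLN8237 was 0.01 from DMSO and 1.90 above siNT, the 1 RAB gene past 2-fold there, beside 0.219% of all genes. The siNT minus DMSO difference of -1.89 was the lowest of all 18239 genes. All of this rests on 1 probe set.

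The other RAB40 genes did not share the siNT reading. RAB40C was 0 on every array as a median of 3 probe sets, of which 1 gave 0.73 and 0.56 with the siRNAs against siNT and the other 2 gave -0.08 to 0.00. RAB40A differed by at most 0.05 in size in the 4 comparisons. The ligase partners CUL5, ELOB and ELOC differed by 0.00, 0.27 and -0.02 with siAURKA-1 and by 0.08, 0.14 and 0.10 with siAURKA-2. RNF7, the RING subunit, gave 0.24 and -0.52, and was lower with siAURKA-2 on all 4 probe sets.

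**Figure D4:**
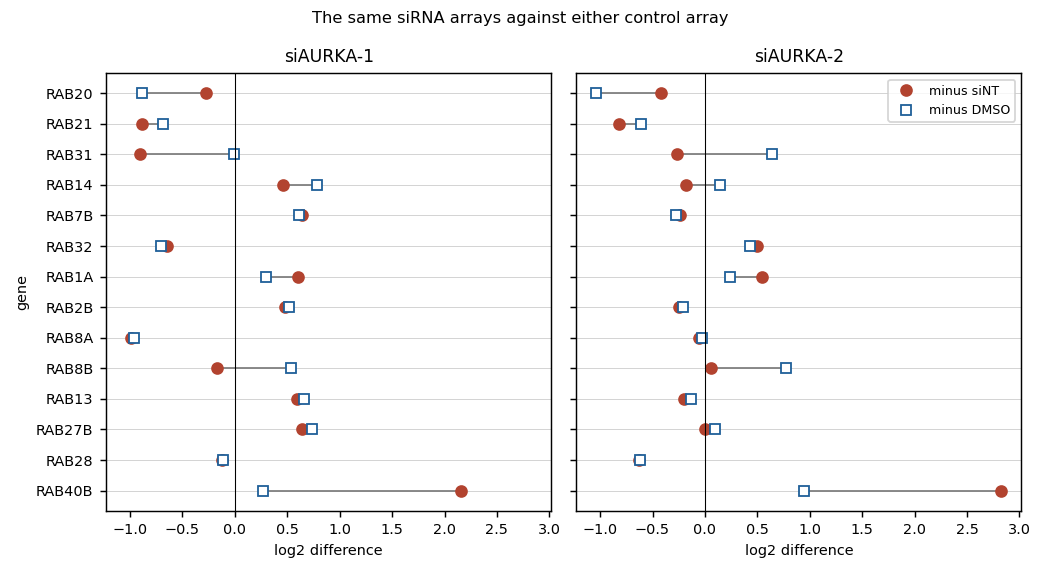
Log2 differences (horizontal axes) of siAURKA-1 and siAURKA-2 from siNT (filled circles) and from DMSO (open squares) for 14 RAB genes (vertical axis), 1 array per treatment. RAB40B, RAB31, RAB20 and RAB8B shift most with the control array, while RAB8A, RAB32 and RAB28 hardly shift.

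The 250 bases before the start site are shown for RAB40B, RAB21 and RAB8A, the genes with the largest differences for siNT, for both siRNAs and for siAURKA-1 alone, to set their promoters side by side. The sequences are RefSeq's on GRCh38.p14, at chr17:82698699-82698948 (minus strand), chr12:71754613-71754862 (plus strand) and chr19:16111639-16111888 (plus strand). Capitals mark, on either strand, the SP1 core GGGCGG, the CCAAT box, the TATA box as TATAAA, the E-box CACGTG or the cyclic AMP response element TGACGTCA, none of which overlapped in these windows.
RAB40B: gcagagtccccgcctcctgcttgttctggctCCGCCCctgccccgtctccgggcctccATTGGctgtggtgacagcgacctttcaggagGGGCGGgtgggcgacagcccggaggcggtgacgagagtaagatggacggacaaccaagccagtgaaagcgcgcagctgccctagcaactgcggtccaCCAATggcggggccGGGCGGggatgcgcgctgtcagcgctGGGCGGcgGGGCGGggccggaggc
RAB21: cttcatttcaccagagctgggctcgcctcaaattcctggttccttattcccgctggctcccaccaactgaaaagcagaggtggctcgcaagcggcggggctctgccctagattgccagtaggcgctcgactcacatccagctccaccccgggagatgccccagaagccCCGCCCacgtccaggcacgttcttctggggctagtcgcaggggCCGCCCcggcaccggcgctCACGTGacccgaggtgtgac
RAB8A: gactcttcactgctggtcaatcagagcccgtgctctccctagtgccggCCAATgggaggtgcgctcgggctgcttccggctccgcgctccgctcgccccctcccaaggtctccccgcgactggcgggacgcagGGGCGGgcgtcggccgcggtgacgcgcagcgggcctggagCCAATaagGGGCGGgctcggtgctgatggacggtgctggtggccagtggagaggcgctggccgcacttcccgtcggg
The RAB40B window held 5 matches to GGGCGG and 2 to CCAAT, and the RAB8A window held 2 of each. RAB21 held 2 matches to GGGCGG and 1 to CACGTG, and none of these windows held TATAAA. For 49 of the 61 RAB genes there were 70 such windows. GGGCGG occurred in 72.9% of these, beside 54.7% of 20492 windows of measured genes, CCAAT in 28.6% beside 32.8%, TATAAA in 7.14% beside 8.67%, CACGTG in 7.14% beside 7.37%, and TGACGTCA in 1.43% beside 2.04%. Their median GC content was 64.2% beside 62.4%. A match describes the letters of the window only.

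The genes that deliver, switch and read RAB proteins were examined as lists. Of the 8 genes of prenylation and membrane delivery 6 were measured, and CHML stood out. It encodes an escort protein that presents new RABs for prenylation. CHML read 0.00 with DMSO, 0.02 with MLN8237, 0.77 with siNT, and -0.33 and -0.36 with siAURKA-1 and siAURKA-2. The siNT array was high and the siRNA arrays low, 2.14-fold and 2.19-fold below siNT on all 4 probe sets, but -0.33 and -0.36 from DMSO. RABIF, a chaperone of nucleotide-free RABs, gave 0.50 and 0.70 above siNT and 0.00 and 0.21 above DMSO. GDI2, which extracts RABs from membranes, gave 0.23 and 0.15.

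Among 33 measured exchange factors none was at least 1.5-fold from siNT with siAURKA-1, beside 7.05% of all genes, and 2 (6.06%, beside 5.08%) were with siAURKA-2, both lower. DENND6A, an exchange factor of RAB14, was 3.57-fold lower with siAURKA-2 (-1.84) and 0.28 higher with siAURKA-1, on 1 probe set, while RAB14 itself gave -0.18 and 0.46. The RAB14 direction with siAURKA-2 depended on the control. From DMSO that array was at 0.14 for RAB14 and -1.60 for DENND6A. RABGEF1, which activates RAB5, was the other exchange factor lower than siNT with siAURKA-2 (-0.73). Of 33 GTPase activating proteins none passed 2-fold in the 4 comparisons, and TBC1D9 alone passed 1.5-fold, at -0.80 for siAURKA-2 minus siNT and 0.71 for siNT minus DMSO. That is 3.03% of the list in each, beside 5.08% and 2.08% of all genes, and 0 for siAURKA-1 minus siNT, beside 7.05%.

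Of 41 measured effectors, 5 were at least 1.5-fold higher and 3 lower than siNT with siAURKA-1, and 1 was higher and 3 lower with siAURKA-2. These are 19.5% of the effectors, beside 7.05% of all genes, and 9.76%, beside 5.08%. Between the control arrays, siNT minus DMSO, 4 were higher and 0 lower (9.76%, beside 2.08%). Against DMSO, siAURKA-1 gave 6 higher and 3 lower (22%, beside 6.84%). For siAURKA-2 there were 4 higher and 2 lower (14.6%, beside 5.21%). SYTL2, an effector that tethers RAB27 vesicles, was 3.21-fold higher with siAURKA-1 (1.68), the same array on which RAB27B was high, and 0.40 higher with siAURKA-2. Both its probe sets agreed in direction, and against DMSO the siRNAs gave 2.21 and 0.93. The other SYTL genes did not share this rise. For siAURKA-1 minus siNT they gave 0.18 (SYTL1), -0.57 (SYTL3), 0.02 (SYTL4) and -0.62 (SYTL5). The effectors MLPH, MYRIP and EXPH5 gave 0.00, -0.02 and -0.21. PLEKHM1, a RAB7 effector of lysosome fusion, was higher than siNT with both siRNAs (0.74 and 0.64), on 1 probe set. The effectors RILP (0.37 and 0.15) and FYCO1 (0.00 and 0.11) stayed under 1.5-fold. RAB11FIP4 and RAB11FIP2, effectors of RAB11, went opposite ways with siAURKA-1 (0.92 and -0.88) and were near level with siAURKA-2 (0.01 and -0.14).

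EEA1 and RABEP1, effectors of RAB5 in endosome tethering, were low with siAURKA-2 alone. EEA1 read 0.00 with DMSO, MLN8237 and siAURKA-1, 0.09 with siNT and -0.80 with siAURKA-2. RABEP1 read 0.00 with DMSO and siNT, 0.12 with MLN8237, and 0.02 and -0.82 with siAURKA-1 and siAURKA-2. RABGEF1, which binds RABEP1, was low on the same array, at -0.66 beside -0.09 to 0.12 elsewhere, while RAB5A, RAB5B and RAB5C gave 0.27, 0.00 and 0.04 for siAURKA-2 minus siNT. In that comparison the effectors RBSN and RABEP2 gave 0.01 and -0.01. The exchange factors RIN1, RIN2, RIN3 and GAPVD1 gave -0.11, 0.13, -0.03 and -0.08. APPL2, the other effector at least 1.5-fold lower there, gave -0.65, but 0.03 from DMSO. With siAURKA-1 it was at -0.51 from siNT. Among the genes of this and the preceding paragraphs on regulators, those under 2-fold were chosen after their values were seen.

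**Figure D5:**
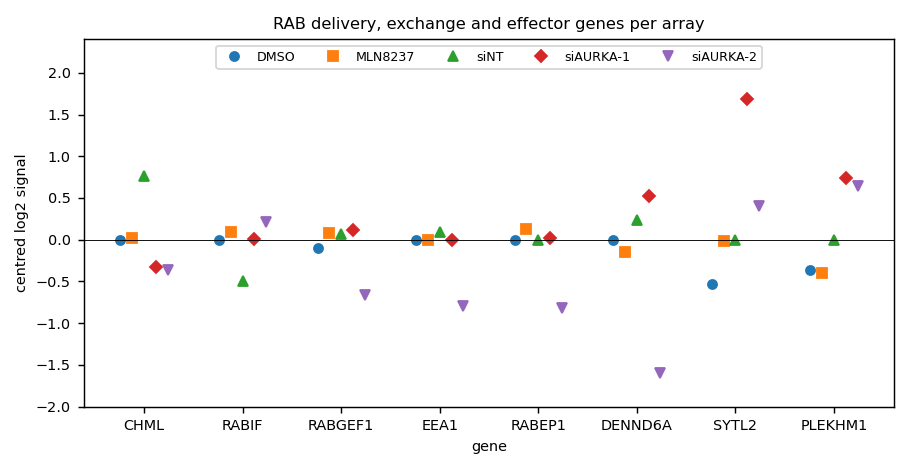
Centred log2 signal (vertical axis) of 8 genes of RAB delivery, exchange and effector function (horizontal axis), with 1 point for each of the 5 arrays. RABGEF1, EEA1, RABEP1 and DENND6A are low on the siAURKA-2 array (-0.66 to -1.60), CHML is high with siNT (0.77) and SYTL2 is high with siAURKA-1 (1.68).

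The inhibitor array was set against vehicle member by member. MLN8237 minus DMSO ranged from -0.64 for RAB20 to 0.37 for RAB5A over the 61 genes, with 34 above 0 (55.7%), 17 below (27.9%) and 10 at 0. Of all genes 38.7% were above 0 and 46.1% below. These counts depended on the control array. MLN8237 minus siNT gave 17 RAB genes above 0 (27.9%) and 31 below (50.8%), beside 35.2% and 50.9% of all genes. Between the controls, siNT minus DMSO gave 33 above (54.1%) and 18 below (29.5%), beside 47.6% and 39.6%. RAB21, the gene low with both siRNAs, was 0.16 above DMSO, and RAB8A was at -0.03. Next to RAB5A on the higher side were RAB8B (0.34) and RAB15 (0.25), and for these 3 genes the siNT array was also above DMSO, by 0.25, 0.71 and 0.25.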

How the data were processed

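Total RNA of 5 cultures was labelled with a 3' IVT kit for Affymetrix GeneAtlas arrays, per the labels' protocols. The deposited values are taken as log2 signals. The submitters' processing notes name RMA, a method of background correction, quantile normalization and median polish. Its software, version and log base: not given in the sources used here. The median over the arrays was exactly 0 in all 49386 probe sets, so the authors' log2 values had been centred, and genes near background could not be filtered.

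Probe sets naming 1 gene (45259) were kept and 1327 naming several left out, 5 of them with a RAB gene. Symbols were updated by Entrez number to RefSeq's table, in which all 61 members matched. Gene values are medians of probe sets (Python 3.11.15, pandas 2.3.3). With 1 array per group no test was possible: counts use 2-fold and 1.5-fold, beside all genes. The siRNAs were compared with siNT and MLN8237 with DMSO. Comparisons with a shared control array are not independent. No dose is given for siNT, on which the labels are ambiguous. Named genes were those at least 1.5-fold apart, the extremes of each comparison, the widest and narrowest of each role list, the RAB40 list with its CUL5 partners, and regulators past 2-fold. Members and lists were chosen with earlier results of these data known. The calculation of differences and counts was run on simulated data with noise set below that between the control arrays. Such a run checks the arithmetic and not the calls made here. Alternatives covered the control array, array centring, the probe set summary, shared probe sets and the threshold. The number of arrays limits the precision.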

Additional observations from a re-analysis of the deposited data

Results flagged for a closer look

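RAB32 was lower with siAURKA-1 and higher with siAURKA-2 than with either control array, and the siRNAs differed by -1.14 on the log2 scale. The difference was not tested, since each siRNA has 1 array, and 1 probe set reads the gene.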

How the results depend on the processing

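No paired analysis was possible because each group has 1 array. With DMSO as control, 0 RAB genes passed 2-fold upward with siAURKA-1 and 0 with siAURKA-2, in place of 1 each (RAB40B), and 1 (RAB20) was lower with siAURKA-2 in place of 0. With siNT as control, 1 (RAB40B) was higher with MLN8237 in place of 0. At 1.5-fold, 5 were higher and 4 lower with siAURKA-1, 2 lower with siAURKA-2, 1 lower with MLN8237, and 2 higher and 2 lower between controls. With a gap of 1.3-fold, an alternative chosen after seeing the data, 1 RAB gene lay above the other arrays on both AURKA siRNA arrays in place of 3, and 1 below as before. RAB40B ranged from 0.27 to 2.16 with siAURKA-1, 0.94 to 2.83 with siAURKA-2 and 0.01 to 1.90 with MLN8237. The medians over RAB genes stayed between 0.00 and 0.06. Of 582 values of named genes and AURKA under alternatives, 42 moved by more than 0.20, the standard deviation of siNT minus DMSO over all genes, 36 of them with another control. Part of the 582 could not move. Array centring changed no value, as the median over genes was 0 on each array. Averaging probe sets could not change a gene with 1 probe set. The share that moved is therefore no measure of stability. In these settings 0 values past 2-fold reversed in sign. Only RAB40B and AURKA held such values in the 4 comparisons. Each has 1 probe set, so averaging probe sets could not change them, and the 0 says little about stability.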
